A study of Mus musculus with 8 samples.

Results

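DNA replication and mitosis genes are genes whose products copy the genome and divide the cell. The set held 41 genes, 23 that act in S phase and 18 that act in mitosis. Their symbols were matched to the Entrez gene IDs of the deposited count table, which lists 27179 genes. All 41 were found, and all 41 were among the 15086 genes that passed the filter on low counts. The tissue was the whole heart of E10.5 mouse embryos. In MOZ KO hearts (Kat6a-/-, n = 3) both copies of Kat6a were mutant, and in MOZ WT hearts (Kat6a+/+, n = 5) neither was. The labels give no litter, sex or strain and do not say how the allele was made, so every p-value speaks only of the variation among these 8 hearts.

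Kat6a encodes MOZ, a histone acetyltransferase. In G1 the origin recognition complex, Cdc6 and Cdt1 load the MCM ring onto DNA, and in S phase the ring is activated as the helicase that opens the template for the polymerases. In mitosis cyclin B with Cdk1, the Polo and Aurora kinases, spindle motors and the anaphase-promoting complex condense, align and separate the chromosomes. Heart muscle cells of the mid-gestation embryo divide actively, and transcripts of both gene groups are widely used to mark dividing cells. In RNA from whole hearts, fewer dividing cells and less RNA per dividing cell cannot be told apart.

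Libraries held 19911803 to 30033097 counts in MOZ KO hearts and 20817852 to 34539787 counts in MOZ WT hearts. The labels do not say what was changed in the Kat6a-/- allele, and Kat6a RNA outside any deleted stretch would still be counted. The Kat6a count stood at 141, 133 and 137 CPM in the MOZ KO hearts, against 138, 144, 143, 141 and 156 CPM in the MOZ WT hearts, so it did not check the genotype labels. Levels are given as CPM, the count of a gene scaled to the library size after adjustment by the trimmed mean of M values. Only the levels of Xist and Ddx3y and the lowest cardiomyocyte level below were scaled to the unadjusted library size. Xist, the RNA that coats the silenced X of female cells, was above 1 CPM only in MOZ WT replicates 4 and 5, and these are the hearts with Y-linked Ddx3y under 1 CPM. All 13 cardiomyocyte markers were at 309 CPM or above in every heart. The marker sums of 3 cell types did not overlap between groups. Cardiomyocyte markers summed to 39560 to 42715 CPM in MOZ KO hearts and 36343 to 39242 CPM in MOZ WT hearts. Epicardial markers summed to 362 to 414 CPM in MOZ KO hearts and 478 to 547 CPM in MOZ WT hearts, and macrophage markers to 39.0 to 47.4 CPM in MOZ KO hearts and 13.1 to 28.3 CPM in MOZ WT hearts. The planned reading of each list was the sum. The sums of the 8 cushion mesenchyme markers overlapped, but their mean log2 CPM, which weighs each marker alike, did not. It ran between 6.14 and 6.15 in MOZ KO hearts and between 6.26 and 6.56 in MOZ WT hearts. Of these 8 markers, 7 had a log2 fold change under 0, against 50.1% of all genes tested. No marker of these lists was at 0 in any heart, and the part of these differences in the values below was not tested.

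None of the 41 genes passed an adjusted p of 0.05 in the edgeR quasi-likelihood test, either higher or lower in MOZ KO hearts. Most lay a few percent lower in MOZ KO hearts. The median change was -4.02% for the 23 S phase genes and -3.67% for the 18 mitotic genes. The lowest was Gins2, a subunit of the replicative helicase, at -11.7%, and the highest was Prim1, the catalytic subunit of primase, at 5.39%. The gene of smallest adjusted p was Mcm2, a subunit of the MCM ring, with an adjusted p of 0.0780 in the edgeR test.

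Over all 15086 genes the same edgeR test called 186 lower (1.23%) and 217 higher (1.44%) in MOZ KO hearts. Of the S phase genes, 0 of 23 were called by edgeR and 0 by limma voom, while DESeq2 called 1, Mcm2. Of the mitotic genes, 0 of 18 were called by edgeR, DESeq2 or voom. At an unadjusted p under 0.05 in the edgeR fit, 5 S phase genes (21.7%) and 4 mitotic genes (22.2%) were lower, against 6.81% of all genes tested. In DESeq2 and in voom 5 S phase genes and 2 mitotic genes had such a p. These counts depended on single hearts. Without MOZ KO replicate 1, 2 S phase genes and 0 mitotic genes passed that level in edgeR, and without MOZ WT replicate 4, 3 and 0. Without MOZ WT replicate 1 they were 3 and 1. The mitotic count was 1 without MOZ KO replicate 3, 1 without MOZ WT replicate 3 and 2 without MOZ WT replicate 5. When each heart in turn was left out, the counts ran between 2 and 6 for the S phase genes and between 0 and 5 for the mitotic genes. Without the MOZ WT hearts that hold Xist RNA they were 2 and 0. None of the 41 was higher at that level, against 7.43% of all genes tested. The median standard error of the log2 fold change was 0.0557 in the 41 genes, against 0.0891 in all genes tested. A smaller change can therefore reach that level in the 41 genes than in a typical gene tested. The fitted log2 fold change was under 0 for 19 of 23 S phase genes (82.6%) and 14 of 18 mitotic genes (77.8%), against 50.1% of all genes tested. Its median was -0.059 for the S phase genes, -0.054 for the mitotic genes and -0.00015 for all genes tested. These genes are measured in the same hearts, so their shared direction is not 41 separate observations.

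In 2 of the 41 genes, Mcm2 and Gins2, every MOZ KO heart lay below every MOZ WT heart, a share of 4.88% against 4.81% of all genes tested. In none of the 41 did every MOZ KO heart lie above every MOZ WT heart, against 4.77% of all genes tested. For 38 of the 41 genes the whole 95% interval of the change lay within 20% of no change. The exceptions were Gins2, whose interval reached -20.5%, Mki67, whose interval ran between -25.3% and 30.2%, and Cenpe, whose interval reached 21.3%. The median standard error (SE) of the log2 fold change was 0.0602 for S phase and 0.0539 for mitotic genes, against 0.0891 for all genes tested.

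**Figure D1:**
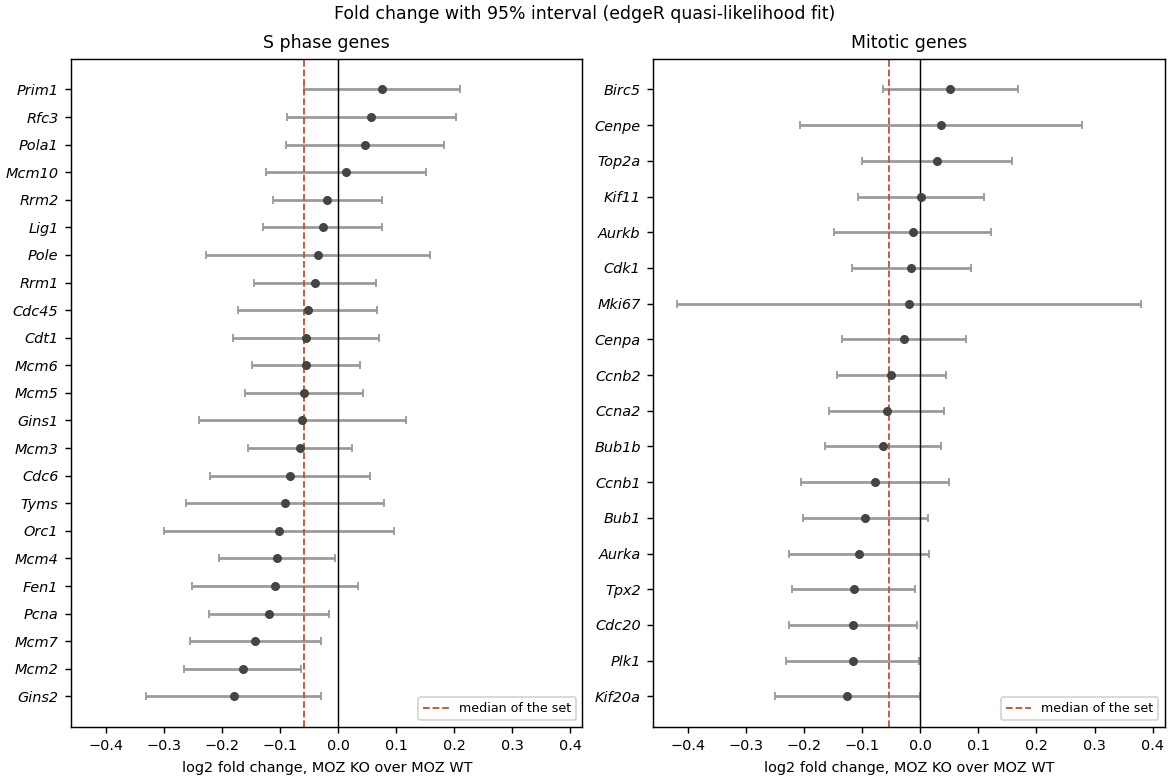
Log2 fold change of each gene, MOZ KO over MOZ WT, with its 95% interval from the edgeR fit; S phase genes are on the left and mitotic genes on the right, ordered by fold change. Dashed lines mark the medians of -0.059 and -0.054. Nearly all points lie close to 0 and most lie below it.

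The promoters of the genes of smallest p are shown. The 41 genes were chosen by name for their roles in S phase or mitosis. Counts of cell cycle motifs in them are therefore not independent of that choice. The windows run between 250 bases before and 50 bases after the start site and are from RefSeq on GRCm38.p6, the assembly called mm10. A window was given for 33 of the 41 genes. Those without one are Pole, Gins1, Gins2, Mcm4, Ccna2, Tpx2, Aurkb and Kif20a. Capitals mark 3 motifs searched on both strands. They are the CHR, a cell cycle element written TTTGAA, the CCAAT box, and the E2F motif in 4 forms, TTTCCCGC, TTTCGCGC, TTTGCCGC and TTTGGCGC. A match on the other strand shows as the reverse complement. The first 3 windows belong to the S phase genes Mcm2 (chr6:88898731-88899030, minus strand), Mcm7 (chr5:138171834-138172133, minus strand) and Pcna (chr2:132253131-132253430, minus strand).
Mcm2: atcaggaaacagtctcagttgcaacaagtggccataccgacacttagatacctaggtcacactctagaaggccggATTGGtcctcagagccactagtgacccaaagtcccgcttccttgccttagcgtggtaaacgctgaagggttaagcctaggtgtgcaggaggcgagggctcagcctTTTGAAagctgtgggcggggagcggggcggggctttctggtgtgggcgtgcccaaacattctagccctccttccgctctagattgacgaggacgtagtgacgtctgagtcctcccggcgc
Mcm7: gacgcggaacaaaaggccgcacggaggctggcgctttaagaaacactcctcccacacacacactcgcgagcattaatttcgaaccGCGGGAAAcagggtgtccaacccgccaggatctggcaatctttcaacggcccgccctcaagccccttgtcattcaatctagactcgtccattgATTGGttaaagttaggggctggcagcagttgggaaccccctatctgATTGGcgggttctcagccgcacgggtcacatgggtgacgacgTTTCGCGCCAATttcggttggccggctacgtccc
Pcna: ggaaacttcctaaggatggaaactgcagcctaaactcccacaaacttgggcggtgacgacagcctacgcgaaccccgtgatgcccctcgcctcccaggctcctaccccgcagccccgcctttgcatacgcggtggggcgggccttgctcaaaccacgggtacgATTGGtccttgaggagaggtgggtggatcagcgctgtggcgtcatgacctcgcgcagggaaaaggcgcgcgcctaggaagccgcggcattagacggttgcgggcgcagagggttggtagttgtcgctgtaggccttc
The next 3 belong to the mitotic genes Cdc20 (chr4:118437294-118437593, minus strand), Plk1 (chr7:122159185-122159484, plus strand) and Bub1 (chr2:127831810-127832109, minus strand).
Cdc20: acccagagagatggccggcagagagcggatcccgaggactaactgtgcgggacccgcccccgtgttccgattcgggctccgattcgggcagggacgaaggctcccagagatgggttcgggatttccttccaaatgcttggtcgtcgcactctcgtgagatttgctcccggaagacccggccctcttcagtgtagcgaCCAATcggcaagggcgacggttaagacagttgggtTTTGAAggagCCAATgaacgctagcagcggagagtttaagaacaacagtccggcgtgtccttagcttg
Plk1: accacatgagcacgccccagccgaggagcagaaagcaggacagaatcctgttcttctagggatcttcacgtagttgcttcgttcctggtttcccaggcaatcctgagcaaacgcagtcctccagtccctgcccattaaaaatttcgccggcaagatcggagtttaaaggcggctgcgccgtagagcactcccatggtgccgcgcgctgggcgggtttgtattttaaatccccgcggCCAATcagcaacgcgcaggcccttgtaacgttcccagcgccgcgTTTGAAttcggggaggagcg
Bub1: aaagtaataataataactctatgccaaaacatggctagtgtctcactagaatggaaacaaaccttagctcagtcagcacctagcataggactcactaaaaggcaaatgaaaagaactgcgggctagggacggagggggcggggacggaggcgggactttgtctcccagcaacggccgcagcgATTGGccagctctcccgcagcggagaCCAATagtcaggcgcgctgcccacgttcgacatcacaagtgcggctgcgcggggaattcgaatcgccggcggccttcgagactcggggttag

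The CHR letters were in the windows of 10 of 14 mitotic genes (71.4%) and 3 of 19 S phase genes (15.8%), against 14.3% of the 11425 tested genes with a window. The E2F letters showed the opposite order. They were in 1 of 14 mitotic genes (7.14%), Cdk1, and 10 of 19 S phase genes (52.6%), against 4.63% of tested genes. The CCAAT box was common in both, in 13 of 14 mitotic (92.9%) and 14 of 19 S phase genes (73.7%), against 42.6% of tested genes. A CHR and a CCAAT box stood in the same window in 10 of 14 mitotic genes, 2 of 19 S phase genes and 5.99% of tested genes. Of the 14 CHR matches in mitotic windows, 12 lay on the strand of the gene and 9 began within 50 bases of the start site. In the printed windows, Cdc20 and Plk1 held a CHR and Bub1 held CCAAT boxes without one. The printed window of Mcm7 held 2 E2F matches, one of which overlaps a CCAAT box, while the window of its other start site (chr5:138171217-138171516) held 1 CCAAT box and no E2F match. Mcm2 held a CHR and a CCAAT box, and Pcna held a CCAAT box alone. Windows of genes without E2F letters can hold other forms of the motif, and a match is a description of the letters. Gene IDs with several start sites were counted as holding a motif if any of their windows did.

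Origin licensing begins with Orc1, Cdc6 and Cdt1. All 3 had log2 fold changes under 0, between -0.10 and -0.055, with adjusted p between 0.638 and 0.754 in the edgeR test. Orc1, the largest subunit of the origin recognition complex, had the lowest level per length of the 41 genes. It stood at 12.9, 13.9 and 12.9 CPM in the MOZ KO hearts, against 14.01, 13.4, 13.7, 14.8 and 14.99 CPM in the MOZ WT hearts. The groups overlapped, and the log2 fold change was -0.10 ± 0.0951 (SE) with an adjusted p of 0.696 in the edgeR test. Cdc6, which helps open the ring for loading, spanned 43.05 to 45.8 CPM in MOZ KO hearts and 44.2 to 51.9 CPM in MOZ WT hearts. Cdt1, the partner that brings the ring to the origin, spanned 74.8 to 83.5 CPM in MOZ KO hearts and 77.8 to 92.1 CPM in MOZ WT hearts. For both, the ranges of the groups overlapped.

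The MCM ring is built of Mcm2 to Mcm7, and all 6 genes had log2 fold changes under 0, with a median of -0.085. Mcm2 (chr6:88883474-88898780) stood at 273, 281 and 265 CPM in the MOZ KO hearts, against 299.6, 287, 299, 324 and 320.2 CPM in the MOZ WT hearts. The 3 MOZ KO hearts were the lowest of the 8, and the groups did not overlap. The log2 fold change was -0.16 ± 0.0481 (SE), a change of -10.8% with a 95% interval between -16.8% and -4.38%, and the edgeR adjusted p was 0.0780. The call depended on the tool and on 1 heart. Its adjusted p was 0.0313 in DESeq2 and 0.0327 in edgeR without MOZ WT replicate 2. Over the edgeR, DESeq2 and voom alternatives it ran between 0.0313 and 0.492, and it was 0.314 without the MOZ WT hearts that hold Xist RNA.

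Mcm7 (chr5:138164583-138172111) stood at 186, 203 and 179 CPM in the MOZ KO hearts, against 215, 192, 204, 226 and 206 CPM in the MOZ WT hearts. MOZ KO replicate 2 lay above MOZ WT replicate 2, and the other hearts were separated by group. For Mcm7 the log2 fold change was -0.14 ± 0.0540 (SE) with an adjusted p of 0.206 in the edgeR test. Mcm4 (chr16:15623897-15637400) stood at 198, 202 and 205 CPM in the MOZ KO hearts, against 221, 211, 215, 235 and 204 CPM in the MOZ WT hearts. The groups overlapped only through MOZ KO replicate 3 and MOZ WT replicate 5, and the log2 fold change was -0.11 ± 0.0481 (SE) with an adjusted p of 0.325 in the edgeR test. Mcm3, Mcm5 and Mcm6 had smaller changes, with log2 fold changes of -0.066, -0.059 and -0.056. Mcm3 spanned 238 to 255 CPM in MOZ KO hearts and 247 to 262 CPM in MOZ WT hearts. Mcm5 spanned 184 to 204 CPM in MOZ KO hearts and 191 to 210.4 CPM in MOZ WT hearts. Mcm6 spanned 313 to 337 CPM in MOZ KO hearts and 328 to 351 CPM in MOZ WT hearts. The ranges of the groups overlapped in each of these 3 genes.

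Helicase activation needs Mcm10, Cdc45 and the GINS complex. Gins2 (chr8:120581266-120589075) stood at 35.1, 34.9 and 34.9 CPM in the MOZ KO hearts, against 44.6, 36.2, 38.5, 37.5 and 41.05 CPM in the MOZ WT hearts. The 3 MOZ KO hearts lay close together and below every MOZ WT heart. For Gins2 the log2 fold change was -0.18 ± 0.0724 (SE), the most negative of the 41, with an adjusted p of 0.240 in the edgeR test. Exons of Gse1 on the opposite strand cover 67.3% of the Gins2 exon bases, and the strand setting of the counting is not given, so reads of the 2 genes may be mixed. Mcm10, Cdc45 and Gins1, another GINS subunit, had log2 fold changes of 0.013, -0.053 and -0.062. Mcm10 spanned 45.97 to 52.5 CPM in MOZ KO hearts and 44.4 to 52.2 CPM in MOZ WT hearts. Cdc45 spanned 45.1 to 47.3 CPM in MOZ KO hearts and 46.3 to 49.5 CPM in MOZ WT hearts. Gins1 spanned 20.7 to 21.9 CPM in MOZ KO hearts and 20.9 to 25.6 CPM in MOZ WT hearts. The groups overlapped in all 3.

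Of Pola1, the catalytic subunit of polymerase alpha, Prim1 and Pole, the catalytic subunit of polymerase epsilon, Pola1 and Prim1 had log2 fold changes above 0 and Pole one under 0. None of the 3 passed the threshold, and roles were not compared by a test. Prim1 (chr10:128015215-128030030) stood at 42.5, 43.4 and 46.3 CPM in the MOZ KO hearts, against 38.8, 40.2, 43.3, 42.4 and 44.3 CPM in the MOZ WT hearts. The groups overlapped, and its log2 fold change of 0.076 ± 0.0647 (SE) was the most positive of the 41, with an adjusted p of 0.665 in the edgeR test. Pola1 and Pole had log2 fold changes of 0.046 and -0.035. Pola1 spanned 57.7 to 71.7 CPM in MOZ KO hearts and 58.1 to 64.04 CPM in MOZ WT hearts. Pole spanned 54.9 to 75.7 CPM in MOZ KO hearts and 62.2 to 71.9 CPM in MOZ WT hearts. In both, MOZ KO replicate 2 was the highest MOZ KO heart.

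Pcna is the sliding clamp that holds polymerases on DNA, Rfc3 is a subunit of the loader that places it, and Fen1 and Lig1 process and seal lagging-strand fragments. Pcna (chr2:132249286-132253180) stood at 92.4, 101 and 98.9 CPM in the MOZ KO hearts, against 106, 107, 100.1, 110.4 and 105 CPM in the MOZ WT hearts. MOZ KO replicate 2 lay above MOZ WT replicate 3, and the other hearts were separated by group. The log2 fold change was -0.12 ± 0.0499 (SE) with an adjusted p of 0.267 in the edgeR test. Pseudogene copies of Pcna, Tyms, Ccnb1 and Ccnb2 are annotated, and reads shared with them could be split. Fen1, Lig1 and Rfc3 had log2 fold changes of -0.11, -0.027 and 0.057. Fen1 spanned 88.5 to 98.02 CPM in MOZ KO hearts and 84.5 to 108 CPM in MOZ WT hearts. Lig1 spanned 163 to 169 CPM in MOZ KO hearts and 156 to 181 CPM in MOZ WT hearts. Rfc3 spanned 35.3 to 39.6 CPM in MOZ KO hearts and 33.8 to 39.3 CPM in MOZ WT hearts. The groups overlapped in all 3. Exons of the antisense gene Gm10143 cover 78.8% of the Fen1 exon bases.

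Rrm1 and Rrm2 form ribonucleotide reductase, which makes deoxyribonucleotides, and Tyms makes thymidylate. Rrm2 (chr12:24708254-24714146), the S phase subunit of the reductase, stood at 246, 252 and 247 CPM in the MOZ KO hearts, against 271, 246, 248, 247 and 246 CPM in the MOZ WT hearts. MOZ WT replicate 1 was the highest of the 8, the groups overlapped, and the log2 fold change was -0.019 ± 0.0451 (SE) with an adjusted p of 0.910 in the edgeR test. Rrm1 and Tyms had log2 fold changes of -0.041 and -0.092. Rrm1 spanned 383 to 417 CPM in MOZ KO hearts and 383 to 435 CPM in MOZ WT hearts. Tyms spanned 34.1 to 40.8 CPM in MOZ KO hearts and 35.2 to 43.99 CPM in MOZ WT hearts. Both pairs of ranges overlapped.

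Mitotic entry is driven by Cdk1 with the cyclins Ccna2, Ccnb1 and Ccnb2, and by the Polo kinase Plk1. All 5 genes had log2 fold changes under 0, between -0.12 and -0.015. Plk1 (chr7:122159435-122169884) stood at 119.9, 117 and 113 CPM in the MOZ KO hearts, against 136, 113, 124, 133 and 128 CPM in the MOZ WT hearts. MOZ WT replicate 2 was the lowest heart, and the other 4 MOZ WT hearts were above all MOZ KO hearts. For Plk1 the log2 fold change was -0.12 ± 0.0549 (SE) with an adjusted p of 0.338 in the edgeR test. Exons of Exosc9 on the opposite strand cover 12.5% of the exon bases of Ccna2. Ccna2 spanned 265 to 281 CPM in MOZ KO hearts and 263 to 299 CPM in MOZ WT hearts. Ccnb1 spanned 73.6 to 75.6 CPM in MOZ KO hearts and 72.3 to 87.8 CPM in MOZ WT hearts. Ccnb2 was the steadiest gene of the group. It spanned 104 to 105 CPM in MOZ KO hearts and 105 to 111 CPM in MOZ WT hearts. Cdk1 spanned 170.2 to 180.1 CPM in MOZ KO hearts and 169 to 194 CPM in MOZ WT hearts. The ranges overlapped in all 4.

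Aurora kinase Aurka builds spindle poles with its activator Tpx2, and Aurkb works with Birc5 in the chromosomal passenger complex. Tpx2 (chr2:152847964-152895321) stood at 182, 196 and 187 CPM in the MOZ KO hearts, against 203, 185, 201, 214 and 214 CPM in the MOZ WT hearts. MOZ WT replicate 2 was again the one MOZ WT heart within the range of the MOZ KO hearts. Tpx2 had a log2 fold change of -0.11 ± 0.0508 (SE) with an adjusted p of 0.303 in the edgeR test, the smallest of the mitotic genes. Aurka had a log2 fold change of -0.11 and spanned 88.1 to 94.4 CPM in MOZ KO hearts and 87.4 to 104 CPM in MOZ WT hearts. Birc5 (chr11:117849237-117855743) had the most positive log2 fold change of the mitotic genes and stood at 82.9, 83.01 and 86.3 CPM in the MOZ KO hearts, against 84.05, 73.9, 82.6, 86.7 and 78.1 CPM in the MOZ WT hearts. The groups overlapped, and the log2 fold change was 0.051 ± 0.0557 (SE) with an adjusted p of 0.753 in the edgeR test. That of Aurkb was -0.013, with 63.5 to 69.6 CPM in MOZ KO hearts and 60.4 to 75.04 CPM in MOZ WT hearts.

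The spindle checkpoint kinases Bub1 and Bub1b hold back Cdc20, the activator of the anaphase-promoting complex. All 3 genes had log2 fold changes under 0. Cdc20 (chr4:118432901-118437343) stood at 118, 130.3 and 131 CPM in the MOZ KO hearts, against 145, 126, 141, 138 and 135 CPM in the MOZ WT hearts. MOZ WT replicate 2 lay among the MOZ KO hearts and the other 4 MOZ WT hearts lay above them. Cdc20 had a log2 fold change of -0.12 ± 0.0529 (SE) with an adjusted p of 0.323 in the edgeR test. Bub1 (chr2:127800197-127831859) stood at 98.1, 103 and 95.004 CPM in the MOZ KO hearts, against 112, 103, 102, 109 and 99.7 CPM in the MOZ WT hearts. The groups overlapped, and the log2 fold change was -0.094 ± 0.0515 (SE) with an adjusted p of 0.430 in the edgeR test. That of Bub1b was -0.064, with 189 to 199 CPM in MOZ KO hearts and 190.4 to 219 CPM in MOZ WT hearts.

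Cenpa is the histone variant of centromeres, Cenpe a motor at kinetochores, Kif11 the motor that separates spindle poles, and Kif20a a motor of cytokinesis. Kif20a (chr18:34624624-34633277) stood at 181, 194 and 191 CPM in the MOZ KO hearts, against 227, 180.4, 201, 216 and 204 CPM in the MOZ WT hearts. As in Plk1, MOZ WT replicate 2 was the lowest heart and the other 4 MOZ WT hearts were above all MOZ KO hearts. The log2 fold change was -0.13 ± 0.0594 (SE), the most negative of the mitotic genes, with an adjusted p of 0.344 in the edgeR test. Exons of Cdc23 on the opposite strand cover 29.3% of the Kif20a exon bases. Cenpe (chr3:135212563-135273540) had the lowest level per length of the mitotic genes and stood at 137, 148 and 117 CPM in the MOZ KO hearts, against 135, 107, 127, 144 and 139 CPM in the MOZ WT hearts. Its groups overlapped throughout, with a log2 fold change of 0.035 ± 0.106 (SE) and an adjusted p of 0.930 in the edgeR test. Cenpa and Kif11 had log2 fold changes of -0.028 and 0.0014. Cenpa spanned 115 to 123 CPM in MOZ KO hearts and 111 to 128 CPM in MOZ WT hearts. Kif11 spanned 175 to 201 CPM in MOZ KO hearts and 177 to 201 CPM in MOZ WT hearts. Both pairs of ranges overlapped.

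Top2a untangles and condenses chromosomes, and Mki67 encodes Ki-67, a coat of mitotic chromosomes used to stain dividing cells. Top2a (chr11:98992947-99024199) stood at 618, 675 and 542 CPM in the MOZ KO hearts, against 634, 552, 593, 605 and 615 CPM in the MOZ WT hearts. MOZ KO replicate 2 was the highest and MOZ KO replicate 3 the lowest of the 8 hearts, and the log2 fold change was 0.028 ± 0.0614 (SE) with an adjusted p of 0.899 in the edgeR test. Mki67 (chr7:135689784-135716450), named after its values were seen, stood at 502, 640.2 and 473 CPM in the MOZ KO hearts, against 471, 456, 535, 661 and 606 CPM in the MOZ WT hearts. Its groups overlapped throughout, with a log2 fold change of -0.020 ± 0.166 (SE) and an adjusted p of 0.977 in the edgeR test. The direction of Top2a turned to -0.053 without MOZ KO replicate 2, and that of Cenpe to -0.047 without the same heart.

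**Figure D2:**
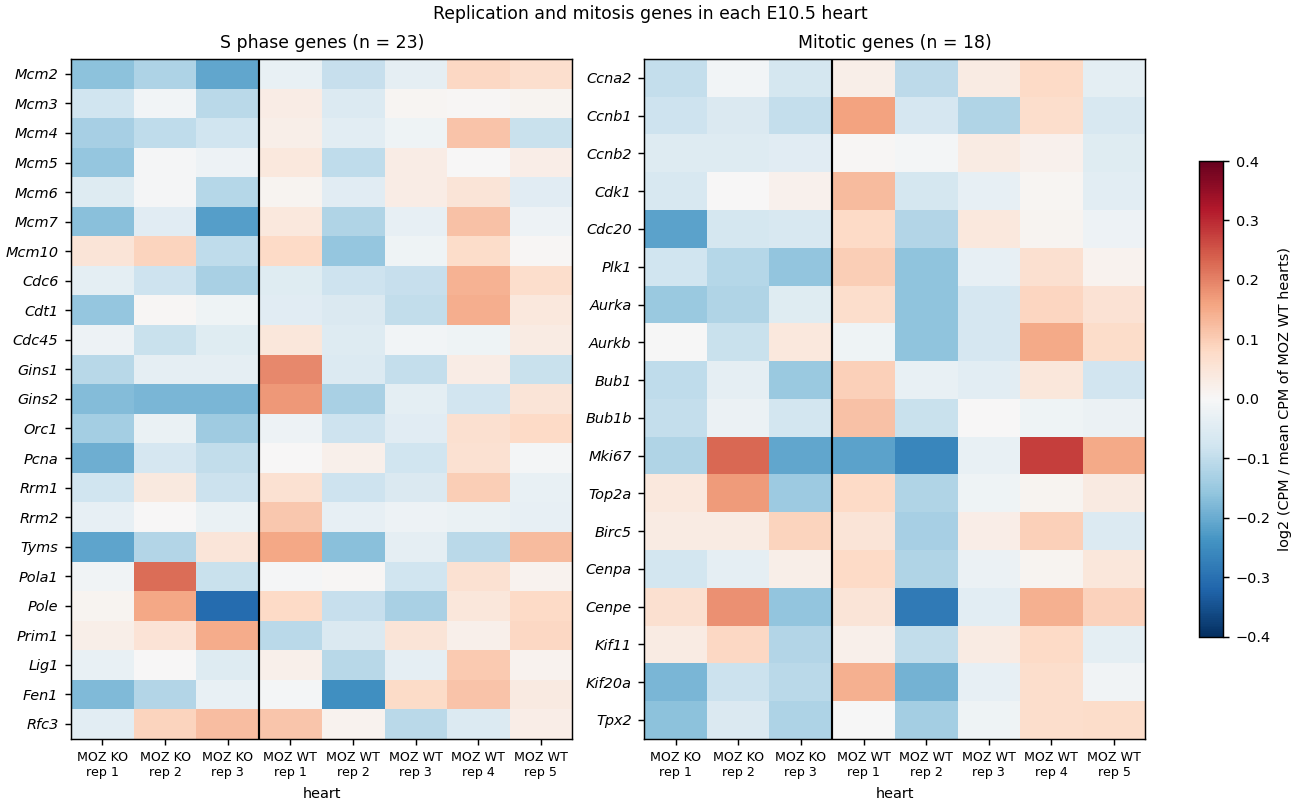
Each square is the log2 ratio of a gene's CPM in 1 heart to the mean CPM of the 5 MOZ WT hearts; columns are hearts, MOZ KO left of the line and MOZ WT right of it, and rows are genes, S phase on the left panel and mitotic on the right. The squares of MOZ WT replicate 2 are mostly blue, like those of the MOZ KO hearts, and all 18 mitotic genes are under the MOZ WT mean in that heart.

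Levels per length spanned a wide range, given here as CPM per kilobase of the gene length in the deposited table. S phase genes ran between 4.39 and 114 CPM per kilobase in MOZ KO hearts and between 4.71 and 117 in MOZ WT hearts. Mitotic genes ran between 17.1 and 117 CPM per kilobase in MOZ KO hearts and between 16.7 and 115 in MOZ WT hearts. Mcm6, Rrm2 and Top2a were the highest. Mcm6 averaged 112 ± 4.30 CPM per kilobase in MOZ KO hearts and 117 ± 3.58 in MOZ WT hearts (SD, n = 3 and 5). Rrm2 averaged 114 ± 1.42 CPM per kilobase in MOZ KO hearts and 115 ± 4.97 in MOZ WT hearts. Top2a averaged 117 ± 12.8 CPM per kilobase in MOZ KO hearts and 115 ± 5.84 in MOZ WT hearts. Neighbours among these 3 differ by less than the larger of their SDs. Orc1 was the lowest in both groups, below Pole at 9.31 in MOZ KO hearts and 9.54 in MOZ WT hearts. The order of the genes is that of whole-heart RNA and depends on the lengths given with the counts.

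**Figure D3:**
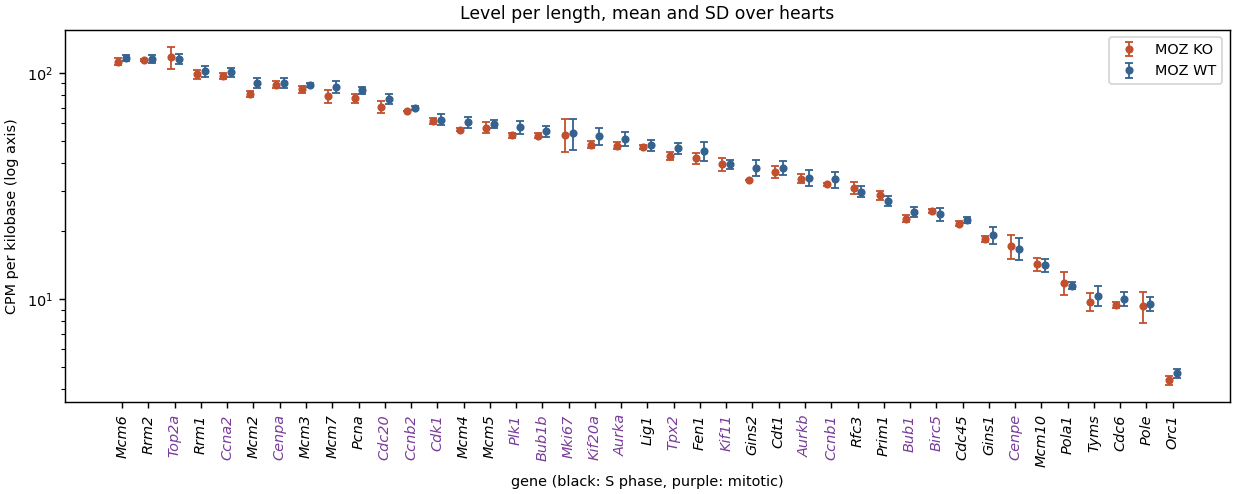
Mean and SD of CPM per kilobase for each of the 41 genes on a log axis, MOZ KO (n = 3 hearts) left of MOZ WT (n = 5 hearts) for each gene, ordered by the MOZ WT mean. The 2 means of a gene lie close together along the whole range of levels.

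The 23 S phase genes summed to 2915, 3075 and 2917 CPM in the MOZ KO hearts, against 3186, 2957, 3065, 3246 and 3116 CPM in the MOZ WT hearts. The groups overlapped. The 18 mitotic genes summed to 3306, 3597 and 3218 CPM in the MOZ KO hearts, against 3534, 3139, 3427, 3675 and 3529 CPM in the MOZ WT hearts, and these groups overlapped as well. The median over the S phase genes, as percent of the MOZ WT mean, was 94.5, 99.3 and 94.3% in the MOZ KO hearts, against 102, 94.5, 97.5, 104 and 102% in the MOZ WT hearts. For the mitotic genes it was 94.6, 97.6 and 94.4% in the MOZ KO hearts, against 105, 92.0, 98.2, 105 and 98.8% in the MOZ WT hearts. MOZ WT replicate 2 was the low heart of its group. It lay under the MOZ WT mean in 18 of 18 mitotic genes and 20 of 23 S phase genes, and was the lowest of the 8 hearts in 10 mitotic genes. MOZ KO replicate 3 was the lowest in 10 S phase genes. Without MOZ WT replicate 2 the median log2 fold change was -0.075 over the S phase genes and -0.080 over the mitotic genes. Without MOZ KO replicate 2 it was -0.087 over both. The sum of mitotic over the sum of S phase CPM was 1.13, 1.17 and 1.10 in the MOZ KO hearts, against 1.11, 1.06, 1.12, 1.13 and 1.13 in the MOZ WT hearts.

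Red cell precursors also divide, and their markers varied widely. The 10 erythroid markers summed to 4703, 8153 and 6035 CPM in the MOZ KO hearts, against 3391, 3437, 8233, 14127 and 7598 CPM in the MOZ WT hearts. MOZ WT replicates 1 and 2 were the lowest of the 8 in this sum. The 4 hearts highest in Mki67, namely MOZ KO replicate 2 and MOZ WT replicates 3, 4 and 5, were also the 4 highest in the erythroid sum. Mki67 was chosen here after its values were seen, and the sums of both gene groups did not follow that order. MOZ WT replicate 1, the lowest of the 8 hearts in the erythroid sum, was the next to highest in the S phase sum and was the highest heart in 7 S phase and 8 mitotic genes. None of the 10 markers was called by edgeR, DESeq2 or voom, and none had an unadjusted p under 0.05. All 10 had a log2 fold change under 0 in the edgeR fit, against 50.1% of all genes tested. Their median log2 fold change was -0.26, with a median SE of 0.55, so a difference between groups in these markers could be missed. With the erythroid level as a covariate the median log2 fold change was -0.056 over the S phase genes and -0.051 over the mitotic genes, and no gene of the 41 was called by edgeR. With that covariate the log2 fold change of Mki67 was 0.014. Without the MOZ WT hearts that hold Xist RNA it was 0.14. The part of red cell precursors in the values of the 41 genes was not tested.

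**Figure D4:**
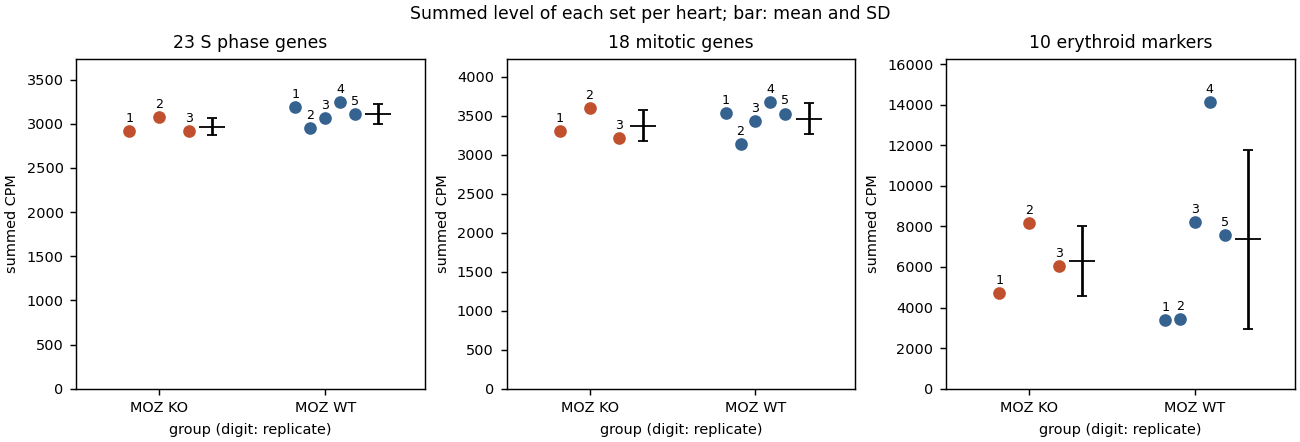
Summed CPM per heart of the S phase genes, the mitotic genes and the erythroid markers; each point is 1 heart labelled by its replicate number, MOZ KO left and MOZ WT right, and the bar gives the mean and SD. The 2 groups overlap in all 3 panels, and MOZ WT replicate 4 has the highest erythroid sum, 14127 CPM.

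The 5 longest genes, Mki67, Cenpe, Pole, Pola1 and Top2a, stood apart in their spread in MOZ KO hearts, a pattern chosen after the values were seen. Their lengths ran between 5217 and 10075 bases. All 5 were highest in MOZ KO replicate 2 and lowest in MOZ KO replicate 3 among MOZ KO hearts. Of the other 36 genes, 19 were also highest in MOZ KO replicate 2 and 14 lowest in MOZ KO replicate 3. Their SD was 10.9 to 16.6% of the mean in MOZ KO hearts and 3.49 to 16.1% in MOZ WT hearts. In the other 36 genes it was 0.292 to 9.20% in MOZ KO hearts and 2.13 to 9.84% in MOZ WT hearts. In MOZ WT hearts only Mki67 and Cenpe of the 5 lay above that range. The 2123 tested genes of 5000 bases or more with at least 10 CPM had a median SD of 5.42% of the mean in MOZ KO hearts, against 5.64% in the 7958 shorter genes. The 2 medians in MOZ WT hearts were 5.78% and 6.15%.

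**Figure D5:**
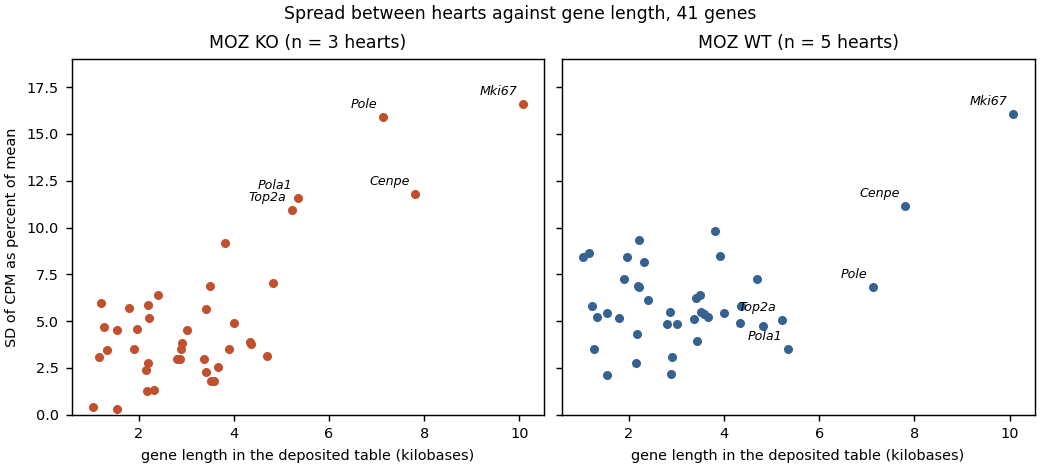
SD of CPM as percent of the mean over hearts, against gene length in kilobases, for the 41 genes; the left panel is MOZ KO (n = 3) and the right panel MOZ WT (n = 5). The 5 labelled genes are the longest, and in the left panel they lie above the other 36, between 10.9 and 16.6%.

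Genes around the 41 in the same pathways gave few calls. Over all 15086 genes tested, edgeR called 1.44% higher and 1.23% lower in MOZ KO hearts. Of 39 other replication genes, 1 rose and 0 fell in the edgeR test, with a median log2 fold change of -0.0042. The gene that rose was Rpa3, the smallest subunit of the complex that coats single-stranded DNA. It stood at 21.3, 18.4 and 20.8 CPM in the MOZ KO hearts, against 18.2, 12.97, 16.2, 13.8 and 14.9 CPM in the MOZ WT hearts, with a log2 fold change of 0.41 ± 0.105 (SE) and an adjusted p of 0.0413 in the edgeR test. Every MOZ KO heart lay above every MOZ WT heart, as in 4.77% of all genes tested. The call of Rpa3 was lost when any 1 of 7 of the 8 hearts was left out, all except MOZ WT replicate 1, in voom, and without the hearts that hold Xist RNA, while the direction stayed. Over the edgeR, DESeq2 and voom alternatives its adjusted p ran between 0.00987 and 0.224.

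Of 17 nucleotide supply genes, 1 rose and 0 fell in the edgeR test, with a median log2 fold change of -0.027. The gene that rose was Shmt2, the mitochondrial enzyme that makes one-carbon units from serine. It stood at 125, 125 and 119 CPM in the MOZ KO hearts, against 111, 94.03, 108, 114 and 104 CPM in the MOZ WT hearts, with a log2 fold change of 0.21 ± 0.0559 (SE) and an adjusted p of 0.0446 in the edgeR test. Every MOZ KO heart lay above every MOZ WT heart, as in 4.77% of all genes tested. The call of Shmt2 was lost when any 1 of 6 hearts was left out, all except MOZ WT replicates 1 and 4, in voom, and without the hearts that hold Xist RNA. Over the edgeR, DESeq2 and voom alternatives its adjusted p ran between 0.0212 and 0.212. Counted together, the calls of Rpa3 and Shmt2 were lost 8 times over the alternatives other than omissions of single hearts. The losses in voom and without the hearts that hold Xist RNA are among these 8, and the rest are not named here.

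The other 5 lists had no call in the edgeR test, and of these DESeq2 called 1 gene and voom none. At an unadjusted p under 0.05 in the edgeR test, 6.81% of all genes tested were lower and 7.43% higher. Of 21 regulators of cell cycle transcription, 3 were lower at an unadjusted p under 0.05, and the gene called by DESeq2 was Mybl2. Mybl2, which encodes B-Myb, a transcription factor of cell cycle genes, had the smallest p. It stood at 35.04, 38.2 and 36.98 CPM in the MOZ KO hearts, against 48.2, 40.3, 39.9, 44.3 and 46.02 CPM in the MOZ WT hearts, every MOZ KO heart below every MOZ WT heart, with a log2 fold change of -0.25 ± 0.0725 (SE) and an adjusted p of 0.0710 in the edgeR test. In 4.81% of all genes tested every MOZ KO heart lay below every MOZ WT heart. The adjusted p of Mybl2 was 0.0381 in DESeq2 and 0.0357 in edgeR without MOZ WT replicate 2. Over the edgeR, DESeq2 and voom alternatives it ran between 0.0357 and 0.351. Of 58 other mitotic genes, 3 had an unadjusted p under 0.05, all lower, and the one of smallest p was Nek2, a centrosomal kinase, with a log2 fold change of -0.14 and an adjusted p of 0.237 in the edgeR test. Of 11 genes of chromatin assembly at the fork, 3 had an unadjusted p under 0.05 in edgeR, all lower. Uhrf1, which recruits maintenance DNA methylation, led them with a log2 fold change of -0.14 and an adjusted p of 0.286 in the edgeR test. The sums of these 11 genes overlapped between groups. Their mean log2 CPM did not, with 6.27 to 6.36 in MOZ KO hearts and 6.37 to 6.44 in MOZ WT hearts. Of 20 replication checkpoint genes, none had an unadjusted p under 0.05, and the one of smallest p was Brca2, a mediator of repair by recombination, with a log2 fold change of 0.13 and an adjusted p of 0.379 in the edgeR test. Of 14 p53 target genes, 2 were higher and 1 lower at an unadjusted p under 0.05, led by Phlda3, an inhibitor of Akt, with a log2 fold change of -0.17 and an adjusted p of 0.202 in the edgeR test.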

How the data were processed

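RNA was isolated from each heart with a column kit for small samples, and libraries were made with a stranded kit, per the labels' protocols. The submitters' processing notes name bcl2fastq, featureCounts and mm10. The aligner, the annotation, all versions and the strand setting of the counting were not given in the sources used here. What the authors deposited is a whole-number count for every Entrez ID and heart, without normalization, and a gene length. Depth was 19911803 to 34539787 counts per heart, which gives a counting error of 1.80% per heart in the median of the 41 genes. For the lowest, Orc1, it is 5.32%, as large as the SD between hearts, so counting error limits such genes.

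IDs were matched to symbols in the RefSeq table of GRCm38.p6 (25275 of 27179). The counts were filtered with filterByExpr, scaled by trimmed mean of M values and tested in edgeR 4.0.16 (R 4.3.3) with the robust quasi-likelihood test of MOZ KO over MOZ WT, all 8 hearts, no covariate, with Benjamini-Hochberg adjustment over all 15086 genes and a threshold of 0.05. DESeq2 1.42.0 and limma 3.58.1 (voom) were alternatives; others were scalings, filters, an erythroid covariate, leaving out hearts and a block on replicate number. Deviations of same-numbered hearts had correlations between -0.119 and 0.0659 and the labels give no litter, so numbers were not used as pairs. No pair of the 28 pairs of libraries agreed within sampling noise. Exon overlaps were read from the GENCODE M21 annotation, and promoters, motifs and figures were handled with Python 3.11.15.

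The 41 genes and all other lists were chosen with earlier results of these data known. Values of every heart are given for the 5 genes of smallest p in each group, those of highest and lowest level per kilobase and those of most positive and most negative log2 fold change; from other lists, for genes past the threshold, or values of the 1 of smallest p where none passed. Of the marker lists, edgeR called 2 cardiomyocyte markers higher of 13, and 1 epicardial marker higher and 6 lower of 10. It called 2 endothelial markers higher and 1 lower of 11, 2 cushion mesenchyme markers lower of 8, and 5 macrophage markers higher of 10. Over all genes tested edgeR called 1.44% higher and 1.23% lower. None of 10 erythroid markers or 14 tissue handling genes was called by edgeR, DESeq2 or voom. At an unadjusted p under 0.05 stood 0 erythroid markers in each tool. Of the tissue handling genes, 2 stood there in edgeR, 5 in DESeq2 and 5 in voom. Tissue handling genes summed to 875, 679 and 671 CPM in the MOZ KO hearts, against 654 to 714 CPM in the MOZ WT hearts.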

Additional observations from a re-analysis of the deposited data

Results flagged for a closer look

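Among 60 measures checked in the same 5 MOZ WT hearts, genes and sums of genes, 1 held a heart far from the others. Rrm2, the S phase subunit of ribonucleotide reductase, stood at 271 CPM in MOZ WT replicate 1, and the nearest MOZ WT heart stood at 248 CPM. The gap was 0.924 of the range of the group, above the critical value of 0.71 for 5 hearts. Chance gives about 1 such heart in 20 independent measures, and these measures share hearts and genes. Without that heart the log2 fold change of Rrm2 was 0.0088, against -0.019 with it.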

How the results depend on the processing

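No mitotic gene of the 41 passed the threshold under any alternative run. Of the S phase genes, 1 passed in DESeq2, Mcm2, and the same 1 passed without MOZ WT replicate 2 (0 to 1 over the omissions of single hearts), and none passed under the other alternatives. The median log2 fold change kept its direction throughout, between -0.087 and -0.050 over the S phase genes and between -0.087 and -0.042 over the mitotic genes when single hearts were left out. The S phase genes with a log2 fold change under 0 numbered 16 to 21, and the mitotic genes 12 to 16. Those past an unadjusted p of 0.05 were less stable, 1 to 6 of the S phase genes and 0 to 5 of the mitotic genes over all alternatives, against 5 and 4 in the edgeR test of all hearts. The number of all genes called moved more, between 194 and 496 when single hearts were left out, with 194 without MOZ KO replicate 1 and 263 without MOZ KO replicate 3, against 403 with all hearts; the cause was not tested. The directions of Top2a (-0.053) and Cenpe (-0.047) without MOZ KO replicate 2, of Cenpe (-0.027) without MOZ WT replicate 2 and of Rrm2 (0.0088) without MOZ WT replicate 1 turned, while without MOZ KO replicate 3 they were 0.10 for Top2a and 0.12 for Cenpe, and without MOZ KO replicate 2 Rrm2 was at -0.033; the cause was not tested. With a replicate block 181 genes were called and 0 of the 41. Same-numbered hearts had correlations of 0.0659, -0.119 and -0.0538, and hearts of unlike number reached 0.0751. So few values cannot show whether same-numbered hearts shared a litter or batch. No scaling moved the median of all genes by more than 0.01. With 3 against 5 hearts, changes of a few percent in a single gene are near its standard error.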
